A study of Apis mellifera with 25 samples.

Results

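Of the 15314 gene identifiers counted in honey bee workers, 35 had a lower level in bees with active ovaries than in bees with inactive ovaries in each of 4 crosses, by a fixed margin. These 35 genes are described here. Levels were expressed as CPM, the count of a gene divided by the library's summed gene counts and multiplied by 1e+06. A gene was taken when its mean level over all 25 libraries was at least 10 CPM and when the mean log2(CPM + 1) of the active bees minus that of the inactive bees was -0.4 or lower within every cross. Of 7670 genes with a mean of at least 10 CPM, these 35 made up 0.456%. A last condition, which would have left out genes varying 100-fold among the bees of a status, removed none of them. The genes were chosen by their difference with ovary status, so its values below are a description without a test and support nothing by themselves.

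The 12 bees with active ovaries and the 13 with inactive ovaries were adult workers of Apis mellifera more than 18 days past emergence, with 1 bee in each library. Every bee came from a cross between Africanized and European stock, made in both directions, and had lived in a colony without a queen for about 18 days. Dissection of the ovaries decided the status, and polyadenylated RNA was taken from the gutted abdomen with fat body and ovaries still attached. The cross is the number that opens the library title (875, 882, 888 or 894). The labels do not say what that number marks, which stock was the mother, or whether bees of a cross shared a colony. Each cross held 3 active and 3 inactive bees, except cross 882 with 4 inactive bees. Because several tissues were sampled together, fewer cells of a type and less RNA per cell cannot be told apart in any of these values.

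In a honey bee colony the queen and her brood keep the ovaries of workers small, and after the loss of the queen some workers begin to form eggs. The fat body, which lines the abdomen, stores nutrients and makes the yolk protein that growing eggs take up. The title of the series names the kinship theory of conflict within a genome, under which alleles from the father and from the mother may differ in their interest in worker reproduction. None of the 15314 identifiers (0) matched the 12398 genes of the reference table used here, assembly Amel_HAv3.1. The genes therefore carry neither names nor roles below, and the labelled tissues could not be checked against marker genes.

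Total gene counts ran from 11.5 M to 34.7 M (M, 1e+06) in active bees, with a median of 27.6 M, and from 7.54 M to 37.7 M in inactive bees, with a median of 24.01 M. The smallest count of any of the 35 genes in any bee was 39. In 3 inactive bees, replicate 6 of cross 882 and replicates 8 and 9 of cross 888, many genes lacked reads of the allele labelled D. Such a loss, a D share of at most 0.05 over at least 30 reads where at least 2 other bees of the cross lay between 0.25 and 0.75, was seen in 23, 26 and 46 genes of these bees and in at most 5 genes of any other bee. Below, bees that lacked D reads means these losses in single genes. Of all their D and Q reads at the positions summed below, D made up 48.8%, 59.2% and 50.1%. Active replicate 1 of cross 875 stood apart in the summed level of the 35 genes, at 2257 CPM against 5590.0 and 6934 CPM in the other active bees of its cross. Q reads were lost by the same measure in 14 to 54 genes of every bee, these 3 included. The part of lost alleles in the D to Q ratios was not tested. What sets these 4 bees apart was not tested, and values without them are given beside some of the results they move.

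The 35 genes ranged in abundance from rare to very abundant. Their mean levels over all bees ran from 11.7 to 1667 CPM, with a median of 65.9 CPM against 34.9 CPM for all genes above the minimum. Of the 35, 12 had a mean of at least 100 CPM and 8 lay under 20 CPM. Summed over the 35 genes, the level was 4646 ± 1680 CPM (SD, n = 12) in active bees and 8135 ± 1094 CPM (SD, n = 13) in inactive bees. By cross the sums averaged 4927 ± 2408 CPM in active and 7316 ± 1243 CPM in inactive bees of cross 875 (SD, n = 3 each). In cross 882 they averaged 4590.3 ± 1978 CPM in active (SD, n = 3) and 8644 ± 997 CPM in inactive bees (SD, n = 4). Active bees of cross 888 had the lowest mean, at 3170.1 ± 177 CPM, against 7801 ± 1339.6 CPM in its inactive bees (SD, n = 3 each). Cross 894 had 5897 ± 199 CPM in active and 8611 ± 562 CPM in inactive bees (SD, n = 3 each). In crosses 882, 888 and 894 the highest active sum lay below the lowest inactive sum, while in cross 875 active replicate 3 exceeded 2 of the 3 inactive bees. Without active replicate 1 the active sums of cross 875 were 5590.0 and 6934 CPM. Without the 3 inactive bees that lacked D reads the inactive sums were 7674, 7896 and 9498 CPM in cross 882 and 6470.3 CPM in the 1 bee left in cross 888, again above all active bees of the cross. The 2 most abundant genes did not carry the gap alone. Without them the sum was 2733 ± 1071 CPM in active bees (SD, n = 12) and 4751 ± 498 CPM in inactive bees (SD, n = 13).

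**Figure D1:**
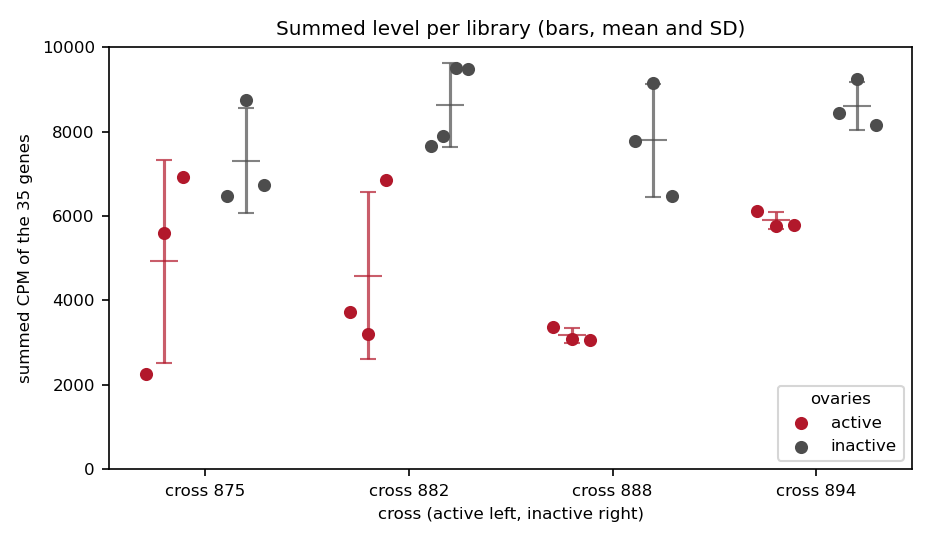
Summed level of the 35 genes in CPM (vertical axis) in each bee, by cross, with active bees left of inactive bees; bars give the mean and SD. Active sums lie between 2257 and 6934 CPM and inactive sums between 6465 and 9509 CPM, with active replicate 1 of cross 875 the lowest of all.

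GB44198 had the highest mean level of the 35, at 1101 ± 603 CPM (SD, n = 12) in active and 2189 ± 692 CPM (SD, n = 13) in inactive bees. In cross 888 it stood at 648, 549 and 559 CPM in the active bees, against 2010.4, 3347 and 1657 CPM in the inactive bees. The groups did not overlap there. The gap between them was wider than the spread of the active bees (SD 54 CPM, n = 3), but not than the range of the inactive bees (SD 891 CPM, n = 3). In cross 894 it stood at 2007, 1806 and 1762 CPM in active bees, against 1998, 3023 and 2693 CPM in inactive bees, so 1 active bee lay just above the lowest inactive bee. The differences in mean log2(CPM + 1) were -0.71, -1.39, -1.93 and -0.45 in crosses 875, 882, 888 and 894. Without the 3 inactive bees that lacked D reads they were -1.33 in cross 882 and, against 1 inactive bee, -1.50 in cross 888.

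GB42794, next in abundance, had lowest, median and highest levels of 376, 767 and 1629 CPM in active bees, against 536, 1259 and 1562 CPM in inactive bees. With all bees it was the most even of the 35 across crosses, with log2 differences of -0.58, -0.56, -0.57 and -0.53, although the bees of each status spread widely and the single highest bee was an active one. The evenness was lost without the 3 inactive bees that lacked D reads. The difference was then 0.04 in cross 888, against the 1 inactive bee left there, and -0.55 in cross 882. The bee left in cross 888, replicate 10, stood at 704 CPM in a library of 7.54 M counts, so the 0.04 rests on it alone. GB44093, the next most even, was the rarest of the 35, at 9.31 ± 2.14 CPM (SD, n = 12) in active and 13.98 ± 4.82 CPM (SD, n = 13) in inactive bees. Its log2 differences ran from -0.62 to -0.42 with all bees, and from -0.84 in cross 888 to -0.17 in cross 882 without the 3 inactive bees that lacked D reads.

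GB52775 had the largest mean difference over the 4 crosses, -1.42 on the log2 scale, a level in active bees 0.37 times that in inactive bees. In cross 882 it stood at 10.4, 3.39 and 17.1 CPM in the active bees, against 55.2, 57.2, 34.9 and 71.1 CPM in the inactive bees, with no overlap. In cross 894 it stood at 26.0, 28.1 and 60.3 CPM in active bees, against 55.3, 44.4 and 43.4 CPM in inactive bees. The groups overlapped there, and active replicate 12 was above all 3 inactive bees of its cross. The log2 differences were -1.24 in cross 875, -2.48 in cross 882, -1.55 in cross 888 and -0.41 in cross 894, the last close to the threshold.

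GB48960 had the next largest mean difference, -1.21 on the log2 scale. Lowest, median and highest levels were 7.50, 17.1 and 35.5 CPM in active bees, against 14.0, 39.7 and 70.0 CPM in inactive bees. All 12 active bees lay below the inactive median, and 5 lay below the lowest inactive bee. It was the 1 gene of the 35 that was at least 2-fold lower in active bees of cross 894, with a log2 difference of -1.05.

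**Figure D2:**
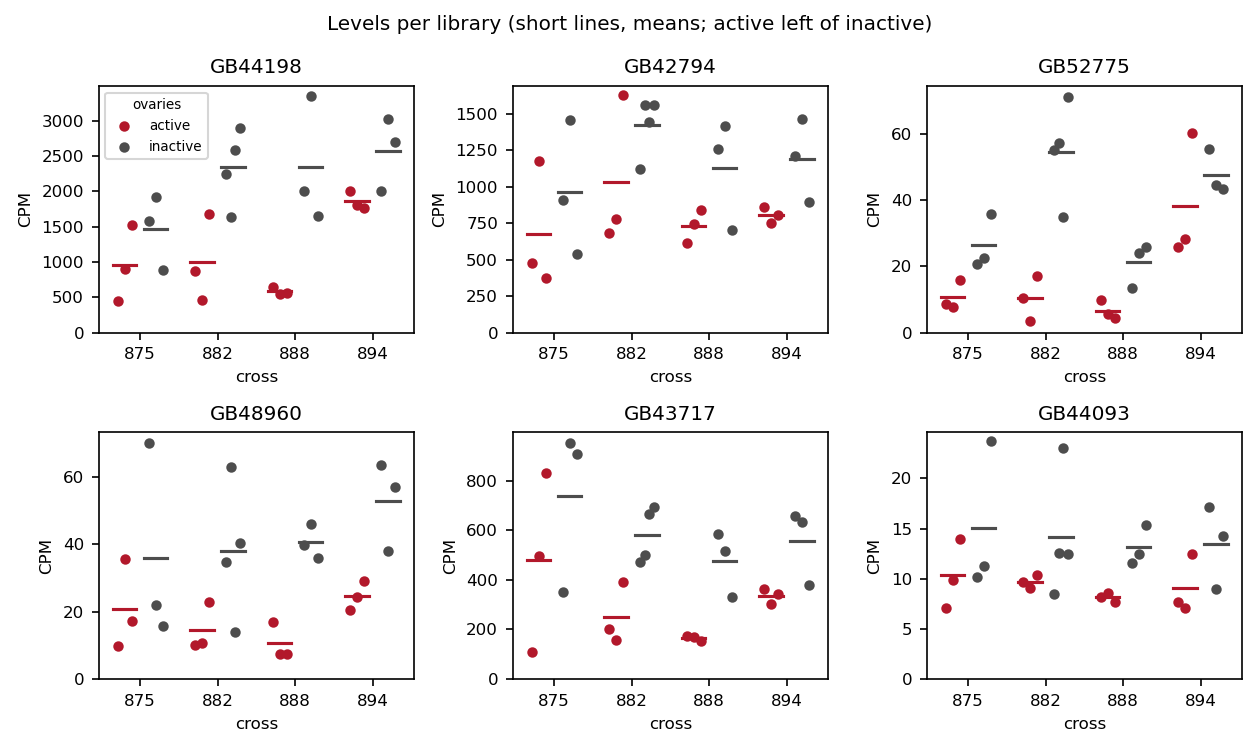
Levels in CPM (vertical axis, linear from 0) of 6 of the genes in every bee, by cross, with active bees left of inactive bees and short lines at the means. GB44198 in cross 888 shows the widest gap of that gene, with 549 to 648 CPM in active bees against 1657 to 3347 CPM in inactive bees, while GB52775 in cross 894 shows groups that overlap.

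The size of the difference varied by cross. Over the 35 genes the median log2 difference was -0.76 in cross 875, -0.80 in cross 882, -0.93 in cross 888 and -0.52 in cross 894. The median over all 7670 genes with at least 10 CPM was -0.08, 0.39, 0.52 and 0.06 in the same crosses. Relative to summed counts, the 35 genes were thus lower in active bees of crosses 882 and 888 while the middle of all genes was higher. Without the 3 inactive bees that lacked D reads the medians were -0.81 for the 35 genes and 0.50 for all genes in cross 882, and -0.998 and 0.36 in cross 888. Cross 888 held the largest difference of 19 genes, cross 882 of 9, cross 875 of 7 and cross 894 of 0. Cross 894 held the smallest difference of 24 of the 35. The mean over the 4 crosses ran from -1.42 to -0.50 with a median of -0.81, and 8 genes were at least 2-fold lower on this mean. More genes passed the threshold in any single cross than the 35 that passed it in all 4. A difference of -0.4 or lower was found in 1522 genes in cross 875 (19.8%), 717 in cross 882 (9.35%), 1179 in cross 888 (15.4%) and 290 in cross 894 (3.78%). In the opposite direction, 170 genes had a difference of 0.4 or higher in all 4 crosses, counted relative to summed counts only.

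**Figure D3:**
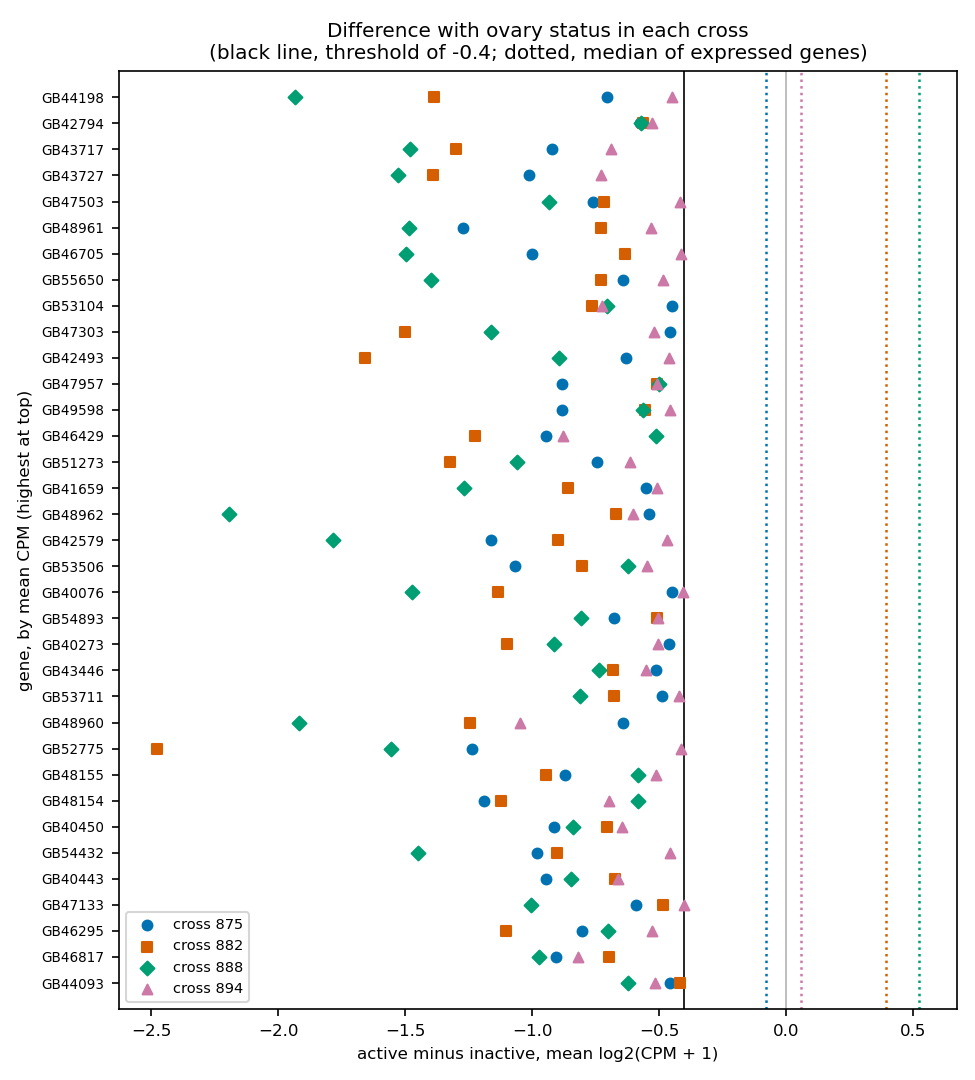
Difference in mean log2(CPM + 1), active minus inactive (horizontal axis), for each of the 35 genes, ordered by mean CPM, with 1 symbol per cross; the black line marks the threshold of -0.4 and dotted lines the median of all genes with at least 10 CPM in that cross. Cross 894 lies nearest the threshold for 24 genes and cross 888 farthest for 19, and GB52775 in cross 882 reaches -2.48.

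Scaling bore on these values. Relative to summed counts, the median over all genes of the mean difference was 0.22 on the log2 scale, and under TMM scaling (trimmed mean of M values, a scaling factor per library) it was 0.00. By cross, the TMM-scaled median was -0.02 in cross 882 and 0.11 in cross 888, against 0.39 and 0.52 relative to summed counts. Under TMM scaling 96 genes met the same rule, and 89 did so with the size factors of DESeq2. All 35 genes were among them in both cases, each lower in active bees in every cross. In the edgeR fit over all bees, with cross as a covariate, 33 of the 35 were called lower in active bees at an adjusted p under 0.05, where 10.4% of 13157 genes were. Both rest on the same contrast, so the count describes the choice of genes and nothing is read from it. The exceptions were GB48961 (edgeR adjusted p = 0.0697) and GB54893 (edgeR adjusted p = 0.127).

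The threshold ran through a dense part of the distribution. GB47133, with a least difference of -0.40 (mean over crosses -0.62), and GB40076, with -0.41 (mean -0.87), lay just inside. GB49010, with -0.40 (mean -0.65), and GB55851, with -0.40 (mean -0.67), lay just outside. In these 4 genes cross 894 set the side. Between -0.45 and -0.4 there were 9 of the 35 genes, and between -0.4 and -0.35 there were 21 genes that were not taken.

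Overlap between individual bees of the 2 statuses depended on the cross. All active bees of a cross lay below all of its inactive bees in 3 of the 35 genes in cross 875, against 2.07% of all genes with at least 10 CPM. The counts were 17 genes in cross 882 (2.4% of all), 22 in cross 888 (7.51%) and 16 in cross 894 (2.32%). Without active replicate 1 the count in cross 875 was again 3 (6.75% of all). Without the 3 inactive bees that lacked D reads it was 20 in cross 882 (2.89%) and, against 1 inactive bee, 31 in cross 888 (28.1%). The rule used these same values, so the counts are descriptive. No gene was free of overlap in all 4 crosses, 6 were so in 3 crosses, 14 in 2, 12 in 1 and 3 in no cross. Over all crosses together, 0 of the 35 had every active bee below every inactive bee, as had 0% of all genes.

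Cross 875 leaned on a single bee. Active replicate 1 was the lowest of the 3 active bees of its cross in 21 of the 35 genes, where 37.1% of all genes with at least 10 CPM had it lowest. Without it, the difference in cross 875 was still -0.4 or lower in 14 of the 35 genes, below 0 in 31 and at or above 0 in 4, and the rule then took 17 genes, 14 of them among the 35. The median difference of the 35 in cross 875 was then -0.33 against -0.03 for all genes. Among genes named in this report, it was then -0.25 in GB44198, -0.22 in GB48960, -0.06 in GB43717 and 0.08 in GB40076. It stayed at -0.42 in GB42794 and -1.13 in GB52775. Without active replicate 12 of cross 894 the rule took 54 genes (31 of the 35), and without inactive replicate 12 of that cross 64 genes (26 of the 35). Without the 3 inactive bees that lacked D reads the rule took 30 genes, 23 of them among the 35. Cross 888 then kept 1 inactive bee, and the difference in that cross ran from -2.01 to 0.41 over the 35 genes.

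**Figure D4:**
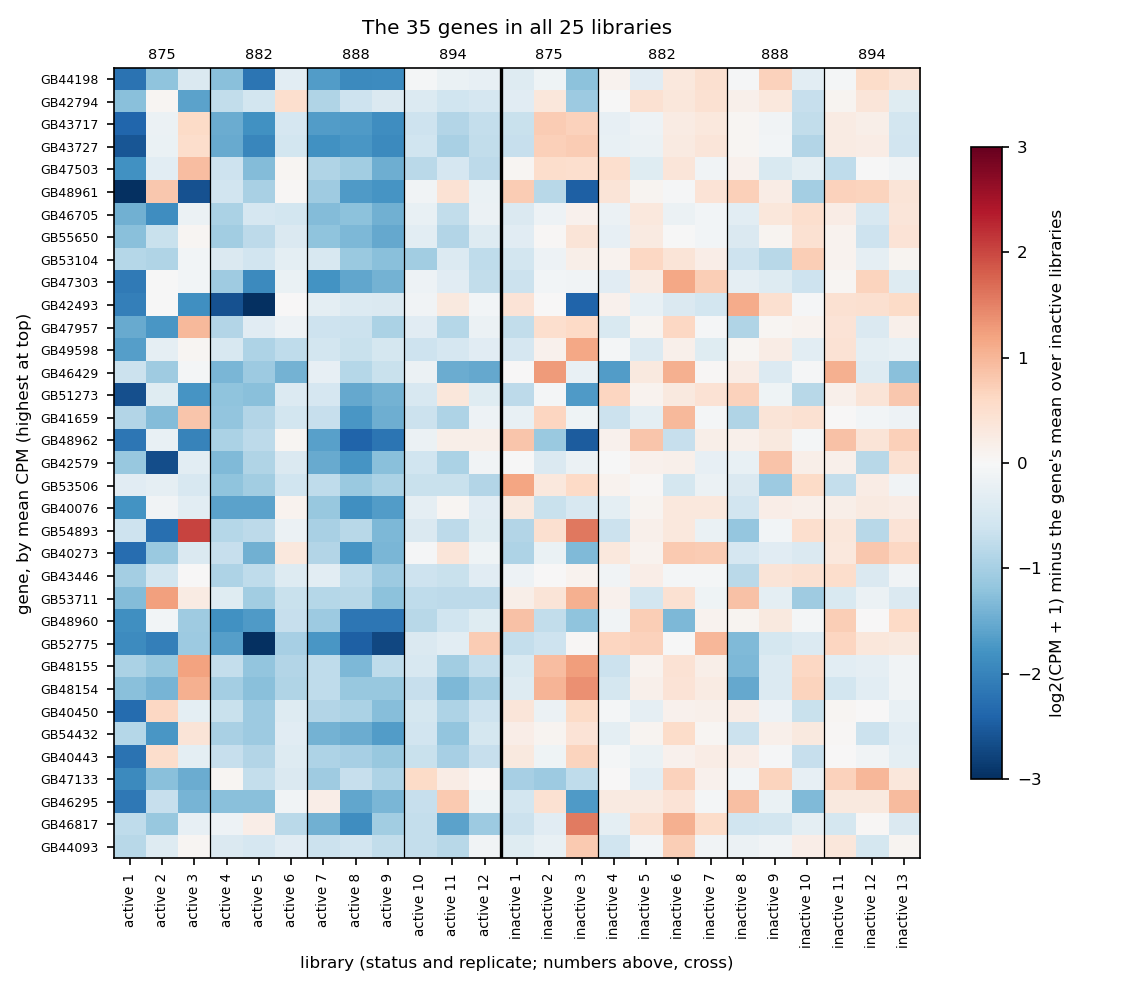
All 35 genes (rows, by mean CPM) in all 25 bees (columns, active left of inactive, by cross), coloured by log2(CPM + 1) minus the gene's mean over the inactive bees, from -3 (blue) to 3 (red). Active replicate 1 and the active bees of cross 888 are blue in most rows, active replicate 3 of cross 875 is red in several, and the inactive bees show no shared shade.

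The 35 genes varied together among active bees of the same cross. After the mean of each cross and status was subtracted, the correlation of log2 levels between pairs of the 35 genes had a median of 0.46 over the 12 active bees, where all pairs of genes with at least 10 CPM had a median of 0.02. Over the 13 inactive bees the median was 0.02 for the 35 genes and 0.28 for all pairs. Without active replicate 1 the median over 11 active bees was 0.38 against 0.02, and without the 3 inactive bees that lacked D reads it was -0.01 over 10 bees against 0.32. These values are descriptive and partly built in. The rule took means of 3 active bees in each cross, so genes that were low in the same single bee could be chosen together, and the points share libraries and scaling. The spread differed as well. The median within-cross SD of log2 levels was 0.68 in active and 0.49 in inactive bees for the 35 genes, and 0.40 in active and 0.49 in inactive bees for all genes above the minimum. A single low active bee helps a gene meet the rule and also widens this SD, so the values are descriptive. No SD was computed without active replicate 1.

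GB43717 and GB43727 followed the mean of the other genes most closely, with r = 0.85 and r = 0.83 over the 25 bees after the cross and status means were subtracted. Without the 2 bees farthest from the middle these became 0.64 and 0.61, and 2 other genes then ranked above both, GB40273 (0.71) and GB40076 (0.68), so the order rested on those bees. GB43717 had lowest, median and highest levels of 107, 251 and 830.0 CPM in active bees, against 333, 586 and 952 CPM in inactive bees. Within cross 875 its active bees ranged from 107 CPM in replicate 1 to 830.0 CPM in replicate 3, which is the whole range of that status. GB53506 (r = -0.13) and GB46817 (r = -0.01) did not follow the mean. GB53506 had lowest, median and highest levels of 33.0, 46.2 and 63.7 CPM in active bees, against 35.3, 79.2 and 177 CPM in inactive bees, the smallest within-cross spread of the 35 in active bees, with an SD of 0.20 on the log2 scale.

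Several of the 35 genes had neighbouring identifiers. These groups were picked out after their values had been seen. Where both identifiers had positions in the allele tables, 98.5% of 2390 pairs of consecutive identifiers lay on the same scaffold. GB48960, GB48961 and GB48962 are consecutive, and the positions of GB48961 (1112173 to 1113791) and of GB48960 (1119482 to 1136303) lie on scaffold Group1.15, in the coordinates of the files, whose genome build is not given in the sources used here. Their within-cross correlations over 25 bees were 0.69 for GB48960 with GB48961, 0.92 for GB48960 with GB48962 and 0.79 for GB48961 with GB48962. Bees of cross 875 were extreme in all 3. GB48961 stood at 13.1, 570.4 and 52.6 CPM in the active bees of that cross, against 551, 183 and 59.0 CPM in the inactive bees, so its difference of -1.27 there became -0.06 without active replicate 1. GB48962 stood at 25.8, 14.8 and 17.1 CPM in active bees of cross 888, against 90.6, 100.4 and 78.3 CPM in inactive bees, a log2 difference of -2.20.

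A further 3 pairs had closely correlated levels. GB43717 and GB43727 lie on scaffold Group14.10 and share 6 allele positions between 255648 and 255905. Their counts had a ratio of 1.02 to 1.23 in every bee and a within-cross correlation of 0.998. GB40443 and GB40450 had a ratio of 0.865 to 1.10 and a correlation of 0.99. GB48154 and GB48155, which are consecutive, had a ratio of 0.569 to 0.893 and a correlation of 0.98. Their median ratio was 0.64 in active and 0.78 in inactive bees, so their counts were less close to proportional. How reads were assigned to overlapping or similar genes is not given in the sources used here. How far each pair holds separate measurements therefore cannot be told. GB47303 also shares its 1 allele position with another identifier, as does GB54893 with 2 of its 13.

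Levels were next compared between crosses within a status. The rule set no condition on such differences, but it was computed from the means of these same bees, so the tests are not independent of it. Among inactive bees, 0 of the 35 differed between crosses in the edgeR test (adjusted p under 0.05), where 0.00732% of 13655 genes did, and 6 of the 35 did at an unadjusted p under 0.05 against 9.8% of all genes. DESeq2 called 3 of the 35 against 3.19% of all genes. The smallest p belonged to GB52775, with means of 26.4, 54.6, 21.2 and 47.7 CPM in crosses 875, 882, 888 and 894 (edgeR adjusted p = 0.108), and GB47133, with 7.91, 18.4, 18.4 and 27.0 CPM (edgeR adjusted p = 0.125). Without the 3 inactive bees that lacked D reads, GB52775 passed the threshold (edgeR adjusted p = 0.0410).

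Among active bees, 3 of the 35 differed between crosses in the edgeR test, where 6.6% of 13750 genes did, and 16 of the 35 did so at an unadjusted p under 0.05 against 28.7% of all genes. GB47133 stood at 3.56, 6.25 and 5.17 CPM in cross 875, at 16.9, 9.56 and 11.9 CPM in cross 882, at 7.26, 9.62 and 8.10 CPM in cross 888 and at 24.6, 19.1 and 16.5 CPM in cross 894. Crosses 875 and 894 did not overlap, with means of 4.99 and 20.1 CPM (edgeR adjusted p = 0.0103 over the 4 crosses). GB52775 averaged 10.8, 10.3, 6.61 and 38.1 CPM in crosses 875, 882, 888 and 894 (edgeR adjusted p = 0.0239), with cross 894 above the rest. GB48962, named because so few genes were called, averaged 35.7, 58.3, 19.2 and 86.0 CPM (edgeR adjusted p = 0.0287), again highest in cross 894. DESeq2 called 9 of the 35 against 19.4% of all genes.

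Of these 3 calls, 2 depended on single bees. GB47133 kept its call when any 1 active bee was left out (edgeR adjusted p 0.00535 to 0.0404). GB52775 lost it without active replicate 8, 9, 11 or 12 (adjusted p 0.0814, 0.0608, 0.0519 and 0.106). GB48962 lost it without replicate 5, 7, 8, 9, 11 or 12 (adjusted p 0.0530 to 0.107). The number of the 35 genes called was 7 without replicate 1, 3 or 6, 12 without replicate 2, and 1 without replicate 8, 9, 11 or 12. The calls over all genes moved as well, with 2837 of 13940 called without replicate 2 and 74 to 187 without replicate 8, 9, 11 or 12, against 908 of 13750 with all active bees. Active bees of cross 888 had the lowest mean for 24 of the 35 genes, and the highest mean lay in cross 894 for 16 genes and in cross 875 for 14. Among inactive bees the highest mean lay in cross 875 for 16 genes, and the lowest in cross 875 for 14 and in cross 888 for 13.

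Reads that carry a parental allele gave a measure within each bee that the rule did not use. The deposited allele tables give counts labelled D and Q at single-nucleotide positions. D was read as the father's (drone) and Q as the mother's (queen) allele, which neither labels nor headers state, and every parental direction rests on that reading. Of the 35 genes, 19 had at least 1 position (54.3%), against 45.2% of all genes with at least 10 CPM. Only positions whose D and Q counts were not near-equal throughout a cross were summed, which favours unequal ratios in both directions. With enough reads in every cross, 5 of the 35 genes could be tested in active bees and 4 in inactive bees.

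In active bees 4 of the 5 genes tested had more D than Q reads (edgeR adjusted p under 0.05), where 39.7% of 1005 genes did, and 0 had more Q reads, where 7.16% did. With so few genes the share is not read against that background. GB48961 had the largest ratio among those called. Its D share of reads was 70.9% ± 24.1 (SD, n = 11) in active bees and 59.0% ± 16.3 (SD, n = 13) in inactive bees, and the log2 ratio of D to Q in active bees was 2.17 (SE 0.65, edgeR adjusted p = 0.0219, above 50% in 9 of 11 bees). For GB48960 the D share was 70.1% ± 18.9 (SD, n = 11) in active and 55.8% ± 15.9 (SD, n = 13) in inactive bees, with a log2 ratio of 1.51 in active bees (SE 0.53, edgeR adjusted p = 0.0405, above 50% in 11 of 11 bees). Active replicates 4 and 5 of cross 882 had 80 and 26 D reads of this gene and 0 Q reads, against 53.2% D in replicate 6. In cross 875 active replicate 2 stood at 91.4% and replicate 3 at 50.8%. Active bees of cross 894 averaged 55.6%, so the excess of D reads was uneven between bees. The shares are over bees with at least 10 reads, which leaves out active replicate 1 for both genes. As the counts of a read can enter at several positions, they overstate the number of independent reads.

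The other genes called in active bees, given because the list is short, were GB46705 and GB41659. GB46705 (scaffold Group5.9, 867670 to 898368) had a log2 ratio of 1.26 (SE 0.21, edgeR adjusted p = 0.00100), and GB41659 (scaffold Group14.15, 160132 to 166328) one of 0.35 (SE 0.11, edgeR adjusted p = 0.0220). GB40273 was the one tested gene without a call, with a ratio of 1.66 (SE 0.73, edgeR adjusted p = 0.0928). Its D share had a median of 43.8% and exceeded 50% in 3 of 9 bees. By cross it averaged 42.0% in 875, 71.9% in 882 and 100% in 888 (n = 2 each), and 27.9% in 894 (n = 3). In inactive bees GB41659 was called, 1 gene of 4 tested where 27.8% of 944 genes were paternal calls and 6.36% maternal ones, with a log2 ratio of 0.62 (SE 0.19, edgeR adjusted p = 0.0284, above 50% in 11 of 13 bees). Without the 3 inactive bees that lacked D reads its ratio was 1.02 (edgeR adjusted p = 0.00431). The call was lost with each bee centred on its median gene (0.48, edgeR adjusted p = 0.0666) and with every position used (0.21, edgeR adjusted p = 0.407). In active bees the same centring also ended the calls of GB41659 (0.18, edgeR adjusted p = 0.208) and GB48960 (1.34, edgeR adjusted p = 0.0765).

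The calls rested on few crosses. In active bees GB48961, GB48960 and GB46705 missed the threshold without cross 888 (edgeR adjusted p 0.0682, 0.121 and 0.117) and without cross 894 (adjusted p 0.223, 0.0797 and 0.151). GB48960 missed it without cross 875 as well (edgeR adjusted p = 0.0804). GB41659 missed it without cross 875 in active bees (edgeR adjusted p = 0.0547) and without cross 888 in active and inactive bees (adjusted p 0.515 and 0.605), and without cross 894 in inactive bees (adjusted p = 0.0738). Every one of these ratios stayed above 0.

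The ratio also varied by cross. For GB46705 the D share in active bees was 64.0% ± 12.7 in cross 875, 13.5% ± 7.93 in cross 882, 91.5% ± 4.39 in cross 888 and 91.3% ± 1.17 in cross 894 (SD, n = 3 each), so Q reads prevailed in cross 882 and D reads in the rest. The difference between crosses passed the edgeR test in active bees (adjusted p = 0.000275). In inactive bees the shares were 49.0% ± 2.77, 38.1% ± 25.7, 69.9% ± 15.5 and 82.4% ± 12.04 in the same order (SD, n = 3, 4, 3 and 3, edgeR adjusted p = 0.104). The large SD in cross 882 came with inactive replicate 6, at 76.3%, against 21.3%, 30.4% and 24.5% in the other inactive bees of that cross. GB41659 also differed between crosses in active bees (edgeR adjusted p = 0.0434), with a D share of 67.7% ± 6.28 in cross 888 and 45.2% ± 2.22 in cross 894 (SD, n = 3 each). These were 2 of 5 genes, against 21% of all tested. In inactive bees 0 of 4 differed between crosses in the edgeR test (adjusted p under 0.05; 2 at an unadjusted p under 0.05), against 14% of all tested. This test was chosen after the data had been seen and was run with edgeR alone.

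GB48961 and GB48960, neighbours on Group1.15, had different D shares within the same bees. In cross 894 the D share of GB48961 was 95.0%, 92.5% and 95.0% in the 3 active bees, against 47.5%, 47.6% and 53.8% in the 3 inactive bees. For GB48960 it was 56.9%, 54.5% and 55.3% in those active bees, against 47.6%, 49.0% and 52.8% in the inactive bees. The gap was wide for GB48961 and small for GB48960, and the share of all genes with such a gap was not counted. In cross 882 GB48961 had 48.0%, 51.0% and 58.1% in active bees, against 46.3%, 53.1%, 50.7% and 53.1% in inactive bees, which overlapped. Cross 894 was singled out after the values had been seen, and its gap was not tested alone.

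Over all crosses the D to Q ratio of 0 of 4 genes tested differed between active and inactive bees (edgeR adjusted p under 0.05), where 0.235% of 851 genes did. At an unadjusted p under 0.05, 1 of the 4 differed, against 7.64% of all genes. The smallest p was that of GB48960, with an active minus inactive difference of 1.27 in the log2 ratio (SE 0.59, edgeR unadjusted p = 0.0437, adjusted p = 0.613). GB48961 had 1.46 (SE 0.88, edgeR adjusted p = 0.749). Without cross 875, in which the bees of GB48961 spread from 29.4% to 99.9% with active and from 41.1% to 100% with inactive ovaries, GB48961 passed the threshold with a difference of 1.40 (edgeR adjusted p = 0.0230), where 0.317% of 947 genes did. No other tool was run on this difference.

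A wider set of genes was tested with every position that had enough reads, which dilutes ratios with positions of near-equal counts. Such counts also carry little spread between bees, so SEs and p-values from this set may be too small. In active bees 4 of 14 genes tested were called paternal (20.9% of 2822 genes) and 1 maternal (2.87%), and in inactive bees 3 of 16 were called paternal (15.7% of 2634 genes) and 0 maternal (2.73%) by edgeR (adjusted p under 0.05). The paternal calls in active bees were GB42579, GB46705, GB47503 and GB48961. GB48960 and GB41659 were no longer called there, with log2 ratios of 0.63 (edgeR adjusted p = 0.0622) and 0.22 (edgeR adjusted p = 0.0541). The maternal call was GB47957, with a D share of 46.9% ± 5.69 (SD, n = 12) in active and 49.7% ± 1.86 (SD, n = 13) in inactive bees (log2 ratio in active bees -0.18, SE 0.02, edgeR adjusted p = 0.00046). In active bees of cross 888 it had 37.6% ± 2.65 (SD, n = 3), and in the other crosses it averaged 49.5% to 50.2%. The SD in those other crosses was only 0.13 to 0.58 (n = 3 each), so the departure from 50% lay in cross 888. The D share of GB43717 and GB43727, which is 1 measurement over shared positions, ran from 41.1% to 99.8% in active and from 1.37% to 99.2% in inactive bees. It lay between 49.97% and 50.03% in every bee of crosses 875 and 882, so the wide values came from crosses 888 and 894.

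**Figure D5:**
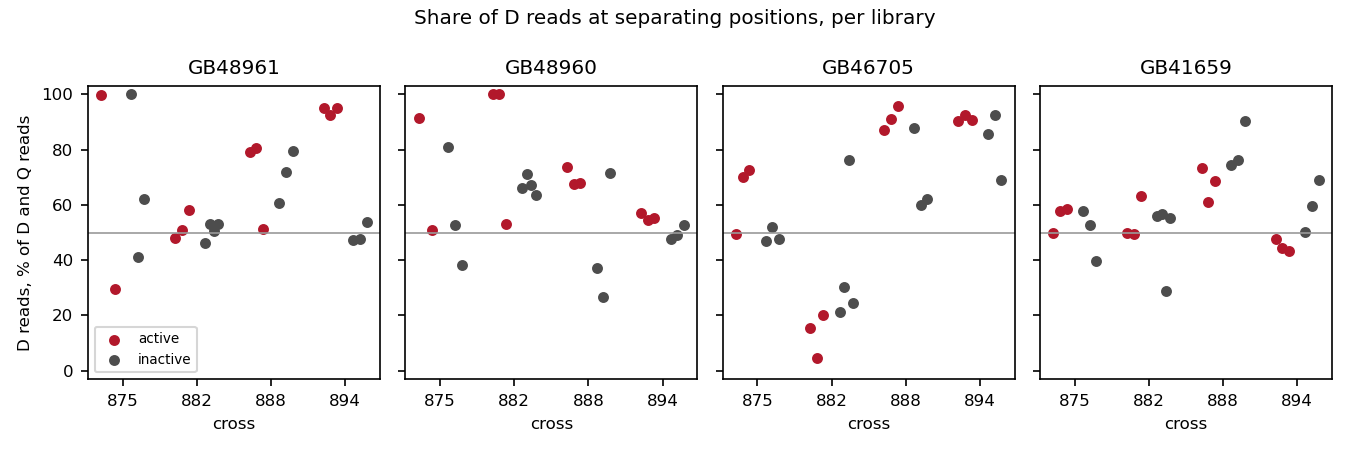
Share of D reads in percent of D and Q reads (vertical axis) per bee for the 4 genes tested in both statuses, by cross, with active bees left of inactive bees; the line marks equal counts and bees with under 10 reads are left out. GB48961 in cross 894 has 92.5% to 95.0% in active bees and 47.5% to 53.8% in inactive bees, and GB46705 in cross 882 has 4.76% to 20.2% in active bees.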

How the data were processed

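The authors deposited raw read counts per gene for each of the 25 libraries, and raw read counts of D and Q alleles per single-nucleotide position in a table for each ovary status. TopHat and edgeR were used, per the submitters' processing notes, without versions. Neither the build and annotation nor the counter, its strand mode or the way alleles were assigned is given in the sources used here. Bees are the replicates, and their numbers, in deposited order, are no more than names.

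CPM were computed from the deposited counts with column sums. Tests were robust quasi-likelihood F tests of edgeR 4.0.16 (R 4.3.3), with Benjamini-Hochberg adjustment over all genes tested and a threshold of 0.05. Tests of gene levels followed TMM scaling and filterByExpr by the groups compared. Parental tests used neither, and took a bee's summed D and Q counts as the library size of both alleles. The ovary status fit had cross as a covariate, and cross differences were fitted within each status. DESeq2 1.42.0 and pandas 2.3.3 were also used. A fold change on log2(CPM + 1) understates the change of rare genes.

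Within a cross, an allele position needed 10 or more reads in 2 or more bees. Squared D minus Q, divided by their total and added up over bees, also had to exceed the 0.01 quantile of chi-square, which kept 33.6% to 41.3% of the positions judged. Counts were summed per gene, bee and allele, and the test took genes having 10 or more reads in 2 or more bees of every cross, with a block for each bee and a ratio for each cross. The contrast was the mean log2 ratio over crosses. Standard errors are the absolute log2 value divided by the square root of F. The edgeR tests of ovary status, cross, parental ratio and its difference between statuses were tried on simulated data, with results not given here. The edgeR test of the parental ratio between crosses and the DESeq2 tests were not.

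Genes named are the 2 with the highest mean CPM, the largest mean difference, the most even difference, the highest and lowest correlation with the other genes, the values nearest both sides of the threshold, the smallest p of each cross test and of the parental difference, and the largest parental ratio among calls. Further genes were named after their values had been seen, where a count was small or identifiers were adjacent. The 35 genes, the rule and the tests were chosen with earlier results of these data known. Alternatives were scaling, pseudocount, minimum CPM, threshold, filter, covariate, tool, centring, minimum reads, positions used, and leaving out bees, crosses or the 3 inactive bees that lacked D reads.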

Additional observations from a re-analysis of the deposited data

Results flagged for a closer look

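GB46705 had an inactive bee of cross 882, replicate 5, far above the others of its group, at 432 CPM against 307, 307 and 327 CPM. A gap of this relative size was looked for in the inactive bees of cross 882 for each of the 35 genes and was found in 1. At the nominal rate of the cutoff, which was not measured here, chance alone flags about 1 in 20 such groups.

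The D to Q ratio differed between crosses in active bees for GB46705 (edgeR adjusted p = 0.000275, mean D share 13.5% in cross 882 and 64.0% to 91.5% in the others) and for GB41659 (edgeR adjusted p = 0.0434, mean D share 45.2% to 67.7%).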

How the results depend on the processing

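No paired analysis was possible because replicate numbers follow the deposited order and tie no active bee to an inactive one. The number of genes meeting the rule was 96 with TMM scaling, 89 with DESeq2 size factors, 87 at a threshold of -0.3 and 18 at -0.5, and 17 to 64 when 1 bee was left out. The number called lower in the ovary status fit was 2 of 35 without cross 882 and 9 without cross 888, where calls over all genes were 49 of 13261 and 336 of 13166, against 2843 of 13157 with all crosses. The median log2 change of the 35 was -0.97 and -0.85, against -1.08. Calls between crosses among inactive bees became 3 with DESeq2 and 1 without the 3 inactive bees that lacked D reads, and stayed at 0 when 1 bee was left out. Among active bees they became 9 with DESeq2 and 1 to 12 when 1 bee was left out. Leaving out a cross changed which of the 35 genes had enough reads for the parental tests. Paternal calls in active bees, 4 of 5 genes tested, became 2 with each bee centred on its median gene, and 1 maternal call appeared with every position. They became 1 of 6 tested without cross 888, none of the genes called with all crosses, and 1 of 5 without cross 894. Paternal calls in inactive bees, 1 of 4 tested, became 3 of 16 with every position and 0 with centring. They became 3 of 5 without cross 875, 3 of 6 without cross 882, 0 of 7 without cross 888 and 0 of 4 without cross 894. The difference between statuses had 1 call without cross 875. Signs turned for the ratio of GB40273 in active bees with every position (-0.16) and without cross 888 (-0.00827), and for the difference between statuses of GB41659 with every position (0.00726) and of GB46705 without cross 888 (-0.21). The cause was not tested. All other summary values (93) stayed within 1.5 times for counts, or moved by less than the SD between bees for the median log2 change. For single genes 514 values were labelled unchanged, 27 lost and 9 gained the threshold. For tests, unchanged meant the same direction, where there was one, and the same side of the threshold. For a gene's mean difference over crosses it meant a shift below its SD between bees, with no threshold checked.

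Of the 35 genes, 16 had no allele position. Reads per bee went down to 2 in GB48960 in the main parental tests. With every position used they went down to 0 in GB53104 in inactive bees. Several tissues in 1 sample, a cross label of unstated meaning and 3 to 4 bees in each cross and status limit all comparisons.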

Other observations

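Identifiers next to the 35 genes were looked at after the groups of neighbours had been seen. GB48153, consecutive with GB48154 and GB48155, had log2 differences of -0.78, -1.14, -0.78 and -0.76 in crosses 875, 882, 888 and 894, but its mean level of 8.29 CPM kept it below the minimum. It averaged 5.71 CPM in active and 10.7 CPM in inactive bees. GB43728, consecutive with GB43727, averaged 173 CPM in active and 399 CPM in inactive bees, with log2 differences of -0.52, -2.49 and -4.29 in crosses 875, 882 and 888 and 0.69 in cross 894. On either side of GB48960 to GB48962, GB48959 averaged 2.48 CPM in active and 3.29 CPM in inactive bees, and GB48963 averaged 7.08 CPM in active and 5.25 CPM in inactive bees, both below the minimum level.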
